A study of Rattus norvegicus with 3 samples.

Results

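The CCN family comprises 6 genes, Ccn1 to Ccn6, all of which were found among the 22250 genes counted in single nuclei of rat hearts. The family was picked with earlier results of these data known, its members were then taken by symbol, and each matched a single gene identifier: Ccn1 (ENSRNOG00000014350), Ccn2 (ENSRNOG00000015036), Ccn3 (ENSRNOG00000008697), Ccn4 (ENSRNOG00000007078), Ccn5 (ENSRNOG00000010666) and Ccn6 (ENSRNOG00000000597). They were followed across 24664 nuclei of 3 libraries, with 1 library each from WT, BMD and DMD rats aged 12 months. BMD rats (R-BMDdel45-47) lack exons 45 to 47 of Dmd, an in-frame deletion made by CRISPR/Cas9 in Sprague Dawley rats, while DMD rats (R-DMDdel52) lack exon 52. WT rats are described as wild-type littermates of the BMD rats. The tissue was the apex of the heart with parts of the septum and of both ventricles, and nuclei were sorted by flow cytometry before capture. Capture used the 3′ kit of 10x Genomics, version v3.1, by the labels and methods, although 5′ chemistry is named elsewhere in the sources used here. The number of hearts behind each library was not given in the sources used here. Without replicate libraries no test between genotypes was possible, and every interval below is a 95% interval of counting error that leaves out the spread between animals. Intervals of levels and ratios treat each UMI as independent, so they also leave out the spread between nuclei and may be too narrow.

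CCN proteins are secreted into the extracellular matrix, where they bind integrins, heparan sulphate proteoglycans and growth factors rather than forming structural fibres. Ccn1 (Cyr61) and Ccn2 (connective tissue growth factor, CTGF) are classical targets of the YAP and TEAD transcription factors and are known to respond to mechanical load, serum factors and TGF-beta, and Ccn2 is widely used as a marker of cardiac fibrosis. Ccn3 (Nov) is often described as opposing Ccn2. Ccn5 (Wisp2) lacks the carboxy-terminal cystine knot domain of the other members, and Ccn4 (Wisp1) and Ccn6 (Wisp3) are the remaining members.

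The region in front of Ccn1 and Ccn2 is shown because both genes were the members with the most counts and both are known TEAD targets. The sequences are the 250 bases upstream of the start site in the RefSeq annotation of the GRCr8 assembly, both on the minus strand and printed 5′ to 3′, at chr1:22624615-22624864 for Ccn2 and chr2:237225690-237225939 for Ccn1. Capitals mark the TEAD motif GGAATG or its reverse complement CATTCC. The deposited counts were made on another assembly (rn6), so these positions do not apply to the count files.
Ccn2: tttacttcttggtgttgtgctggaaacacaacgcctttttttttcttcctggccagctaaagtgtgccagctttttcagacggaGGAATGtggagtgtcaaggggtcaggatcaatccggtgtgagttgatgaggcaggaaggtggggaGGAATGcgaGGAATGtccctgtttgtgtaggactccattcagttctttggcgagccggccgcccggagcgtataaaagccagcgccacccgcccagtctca
Ccn1: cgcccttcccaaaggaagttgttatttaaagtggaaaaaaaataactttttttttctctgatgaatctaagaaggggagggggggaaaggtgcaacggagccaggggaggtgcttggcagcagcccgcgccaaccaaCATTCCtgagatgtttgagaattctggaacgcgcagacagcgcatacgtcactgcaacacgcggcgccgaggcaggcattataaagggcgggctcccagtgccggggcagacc
The Ccn2 sequence held 3 GGAATG matches, beginning 166, 101 and 92 bases before the start site, the last pair separated by 3 bases. The Ccn1 sequence held 1 match on the opposite strand, at 113 bases. Of 33469 promoter sequences of the same length, 4037 (12.1%) held at least 1 match on either strand and 27 (0.0807%) held 3 or more. A TATA box (TATAAA) lay 31 bases before the start of Ccn2 and 34 before that of Ccn1, and was present in 12.9% of all promoters. The SMAD motif CAGACA occurred 80 bases before the start of Ccn1, as in 17.2% of promoters, and was not in the Ccn2 window. Only this exact sequence and its reverse complement were searched, so other SMAD-binding sequences were not counted. The shorter CAGAC is present in the Ccn2 window, and its share over promoters was not taken. No SRF-binding CArG box was in either window, a motif found in 1.497% of promoters. Ccn6 held none of the TEAD matches, and 3 of the 6 members (Ccn1, Ccn2 and Ccn6) had a promoter entry. A match describes the letters only.

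Between 19215994 and 21609238 UMIs (unique molecular identifiers, each a counted RNA molecule) were held by each library, and medians over nuclei lay between 1212.5 and 1486.5 UMIs. Nuclei were clustered together without the CCN genes and named from marker lists, and CPM below stands for a gene's UMIs per 1000000 UMIs summed over 1 class in 1 library. The 11 listed cardiomyocyte markers found in the files summed to 23261, 25709 and 25241 CPM in the class called cardiomyocyte-like for WT, BMD and DMD, none of them at 0. The targeted gene Dmd had 16358, 20320 and 18605 CPM in these nuclei, which does not check the genotype, because tags from either end of a transcript need not come from the deleted exons.

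Ccn2 was by far the most counted member, with 9841 UMIs over all nuclei, followed by Ccn1 with 1998, Ccn5 with 776 and Ccn3 with 342. Ccn4 and Ccn6 had 41 and 22 UMIs in all. By library, in the order WT, BMD and DMD, Ccn2 had 1145, 4866 and 3830 UMIs and Ccn1 had 374, 932 and 692. Ccn5 had 106, 362 and 308 UMIs, and Ccn3 had 118, 70 and 154. Over all nuclei Ccn1, Ccn2 and Ccn5 were thus higher in both mutant libraries than in WT, while Ccn3 was lower in BMD and higher in DMD.

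The members differed in the classes that supplied their UMIs. Cardiomyocyte-like nuclei held 45.5%, 67.2% and 46.4% of the Ccn2 UMIs of WT, BMD and DMD, and fibroblast-like nuclei held 31.7%, 17.6% and 22.5%. For Ccn1 the cardiomyocyte-like share was 32.4% in WT, 61.7% in BMD and 30.8% in DMD. Fibroblast-like nuclei supplied most of Ccn5, with 63.2%, 79.3% and 70.1% of its UMIs, and most of Ccn3, with 71.2%, 67.1% and 65.6%. In every library cardiomyocyte-like nuclei supplied more Ccn2 UMIs than any other class, and fibroblast-like nuclei supplied more than any other class of Ccn3 and Ccn5.

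**Figure D1:**
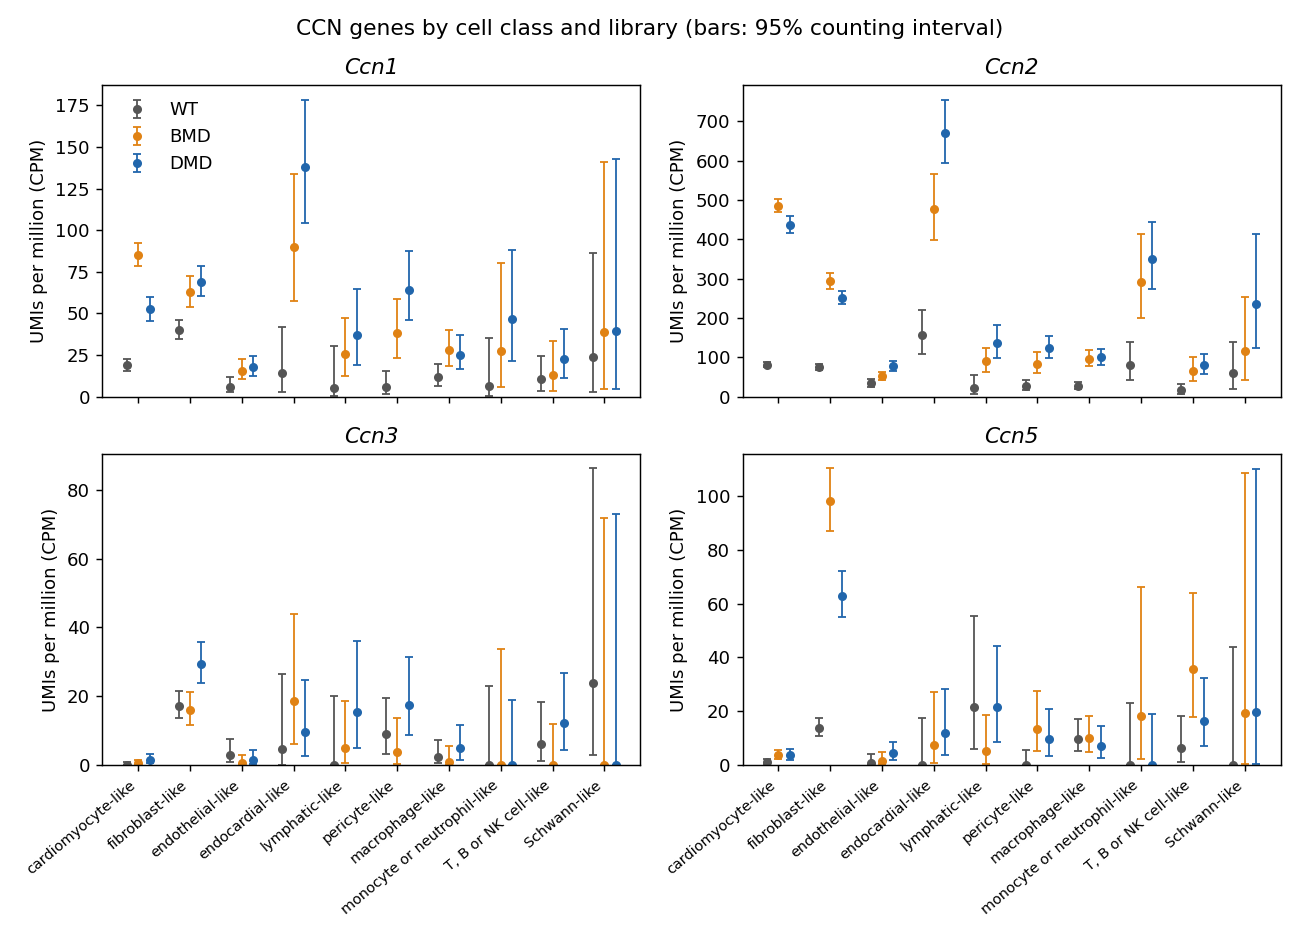
CPM of Ccn1, Ccn2, Ccn3 and Ccn5 (vertical axes, UMIs per 1000000) by cell class (horizontal axis) in the WT, BMD and DMD libraries. Points are 1 library each and bars are exact Poisson 95% counting intervals. Ccn2 stands highest in endocardial-like and cardiomyocyte-like nuclei of BMD and DMD, and Ccn5 stands apart in fibroblast-like nuclei.

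The question put to the cardiomyocytes was how far each member differed between the mutant libraries and WT. In cardiomyocyte-like nuclei (2073 of WT, 1605 of BMD and 1277 of DMD), Ccn2 had 521 UMIs or 81.2 CPM in WT (74.4–88.5), 3270 UMIs or 485 CPM in BMD (469–502) and 1779 UMIs or 437 CPM in DMD (417–458). Both mutant libraries lay far above WT and their intervals did not meet that of WT. The log2 ratio of CPM plus 5 over WT was 2.51 in BMD (2.38–2.64) and 2.36 in DMD (2.22–2.50), or 5.69 and 5.13 times on that scale. Both ratios share the WT library. Set directly against each other, DMD was below BMD by a log2 ratio of -0.15 (-0.23 to -0.06), a small difference whose direction was not the same at every depth, as given below.

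Ccn1 differed in the same direction with fewer counts. It had 121 UMIs or 18.9 CPM in WT (15.6–22.5), 575 UMIs or 85.3 CPM in BMD (78.5–92.6) and 213 UMIs or 52.4 CPM in DMD (45.6–59.9). Over WT, BMD had a log2 ratio of 1.92 (1.68–2.16) and DMD of 1.27 (0.99–1.54), and DMD was below BMD by -0.65 (-0.87 to -0.44). For Ccn1, unlike Ccn2, the interval of the DMD ratio reached down to the 2-fold line. Among the 6 members only Ccn1 and Ccn2 had at least 50 UMIs in this class, and both passed that minimum in the WT library alone. Both were at least 2-fold over WT in BMD, where 1.45% of 10306 genes were, and in DMD, where 3.44% were. They were at least 2-fold higher in both, as were 0.786% of genes, against 0.262% of genes at least 2-fold lower in both. From the highest ratio down, Ccn2 stood 8th in BMD and 11th in DMD, and Ccn1 stood 23rd and 189th, while the median ratio of all genes was -0.04 and 0.01.

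The other members were scarce in muscle nuclei. Ccn5 had 1.25, 3.71 and 3.69 CPM in muscle nuclei (WT, BMD, DMD), from 8, 25 and 15 UMIs. Ccn3 had 0.156, 0.593 and 1.48 CPM, from 1, 4 and 6 UMIs.

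Markers of other cell types also differed between the libraries within this class. The 11 fibroblast markers summed to 225, 186 and 921 CPM (WT, BMD, DMD), and the 9 monocyte or neutrophil markers to 32.4, 33.8 and 248. Most of the DMD excess lay in a small cluster (cluster 11, led by Gadd45g, Pgam2 and Nppb, median 956 UMIs), and without it the sums were 210, 170 and 384 CPM for fibroblast markers and 31.5, 30.1 and 86.4 for the others. Without that cluster the Ccn2 ratio was 2.41 in BMD and 2.44 in DMD, so the difference from WT was about as large without it. Cluster 11 held 65 WT, 113 BMD and 235 DMD nuclei. In a finer clustering the cluster with the same leading genes held 60, 107 and 65. A finer monocyte or neutrophil-like cluster led by S100a8, with 8 fibroblast markers raised, held 4, 5 and 166. Some DMD nuclei counted here as cardiomyocyte-like may thus lose that name at finer resolution, which was not traced nucleus by nucleus.

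The share of cardiomyocyte-like nuclei carrying Ccn2 was taken after each nucleus was thinned at random to 500 UMIs, because deeper nuclei catch more molecules of every gene. The share was 2.70% in WT (2.05–3.49), 15.95% in BMD (14.2–17.8) and 17.7% in DMD (15.6–19.9). Without thinning it was 12.0%, 41.7% and 41.1%, at median depths of 2741, 3649 and 2831 UMIs. The shares of both mutant libraries exceeded that of WT under either count, and BMD and DMD did not separate, since their thinned order was opposite to that of their CPM. Thinned shares with Ccn1 were 0.820%, 4.61% and 3.45%.

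The number of Ccn2 UMIs per muscle nucleus ranged widely. At full depth, 5.11% of WT, 30.03% of BMD and 25.8% of DMD cardiomyocyte-like nuclei had 2 or more Ccn2 UMIs, and 1.01%, 13.8% and 10.6% had 5 or more. Nuclei with 10 or more made up 0.145%, 5.11% and 2.19%. The highest count in a nucleus was 14 in WT, 107 in BMD and 17 in DMD. Both mutant libraries held larger shares of such nuclei than WT at these unequal depths.

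Nuclei of the same depth were also set side by side. Between 500 and 2000 UMIs, Ccn2 had 72.9 CPM in WT, 418 in BMD and 439 in DMD. From 2000 to 4000 UMIs the values were 66.6, 403 and 506 CPM, and from 4000 UMIs up they were 96.9, 524 and 394 CPM. In each band both mutant libraries were above WT, but the order of BMD and DMD changed. Their intervals overlapped in the shallowest band, DMD lay above BMD between 2000 and 4000 UMIs, and BMD lay above DMD from 4000 UMIs up. Ccn1 had 23.9, 83.6 and 92.7 CPM in the shallowest band and 17.2, 80.7 and 38.8 CPM in the deepest, where DMD lay below BMD.

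**Figure D2:**
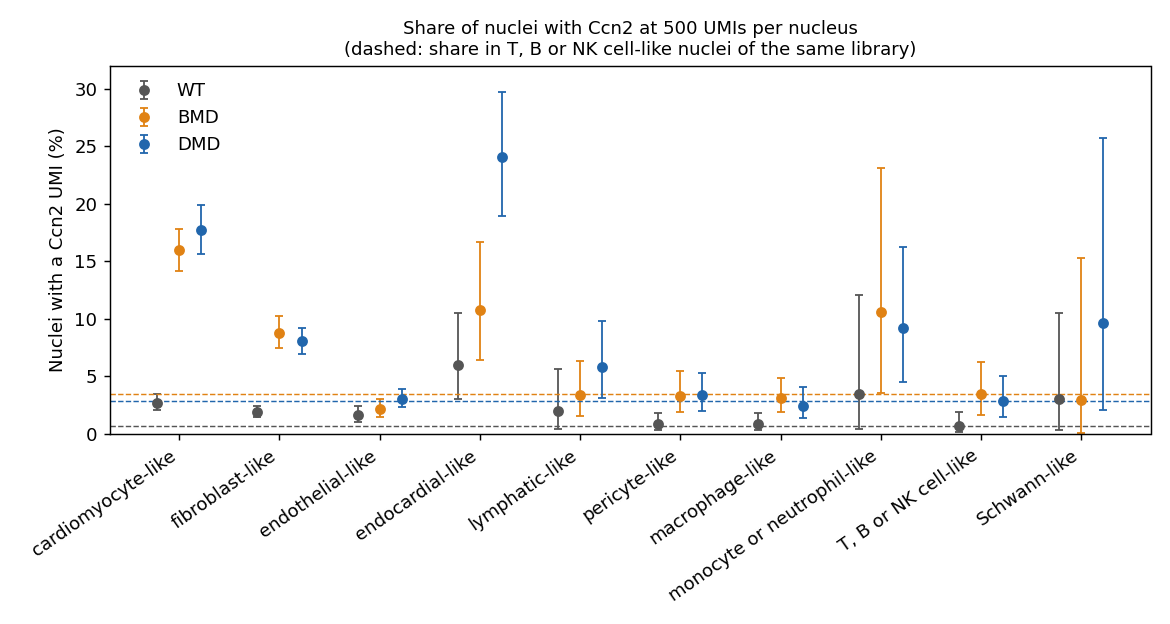
Share of nuclei with at least 1 Ccn2 UMI after thinning to 500 UMIs (vertical axis, percent) by cell class (horizontal axis) in each library, with exact Clopper-Pearson 95% intervals as bars. Dashed lines give the share in T, B or NK cell-like nuclei of the same library, 0.670% in WT, 3.45% in BMD and 2.86% in DMD. The intervals of cardiomyocyte-like, fibroblast-like and endocardial-like nuclei lie above the line of their own library in all 3 libraries, and those of pericyte-like, macrophage-like and Schwann-like nuclei reach it in each.

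Whether Ccn2 went with other stress genes nucleus by nucleus was read in the thinned cardiomyocyte-like nuclei. Nuclei with a UMI of Ankrd1, a stretch-responsive muscle ankyrin repeat gene, carried Ccn2 in 3.54% of cases in WT (2.66–4.60), against 0.523% of nuclei without it (0.108–1.52). In BMD the shares were 16.5% with and 11.4% without Ankrd1, and in DMD 18.3% and 13.3%, with overlapping intervals. With a UMI of Nppa, the atrial natriuretic peptide, they were 9.62% against 2.34% in WT (4.71–17.0 and 1.72–3.104), 19.8% against 14.5% in BMD and 21.6% against 16.1% in DMD. Ccn1-carrying nuclei had Ccn2 in 27.0% of cases in BMD (17.4–38.6), against 15.4% of the others (13.6–17.3), and in 29.5% against 17.3% in DMD. In WT the share was 5.88% (0.149–28.7) against 2.68%, from only 1 of 17 Ccn1-carrying nuclei. In all 3 libraries Ccn2 was thus seen more often where Ankrd1, Nppa or Ccn1 was also seen, though of these comparisons the intervals parted only for Ankrd1 and Nppa in WT and for Ccn1 in BMD. Shares with Acta1 (skeletal alpha-actin) were 12.5% against 2.55%, 22.6% against 15.2% and 22.3% against 17.1%, and those with Nppb (brain natriuretic peptide) were 3.67% against 2.54%, 17.7% against 15.2% and 20.4% against 16.4%. The intervals parted for Acta1 in WT (3.51 to 29.0 against 1.91–3.33), where the share with Acta1 rests on 4 of 32 nuclei, and overlapped in the others. These are descriptions of nuclei from 1 library each, and thinned nuclei carry too few molecules for a nucleus without a UMI to be called negative.

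Finer clusters showed how unevenly the family was distributed within muscle nuclei. A cluster led by Dhrs7c and Myh6, the adult alpha-myosin heavy chain, held 1660 WT, 209 BMD and 282 DMD nuclei, and Ccn2 was 39.3, 85.2 and 270 CPM there. The ratio over WT was 1.03 in BMD (0.55–1.48) and 2.64 in DMD (2.35–2.92). A cluster led by Xirp2 and holding Acta1 among its leading genes (339, 1275 and 751 nuclei) had 206, 452 and 467 CPM, with ratios of 1.11 (0.94–1.29) and 1.16 (0.98–1.34). In a small cluster with Gadd45g, Nppb and Nppa among its leading genes (60, 107 and 65 nuclei), Ccn2 was 294, 1376 and 498 CPM, with ratios of 2.21 (1.79–2.65) and 0.75 (0.23–1.28). Ccn2 was thus over WT in each of the 3 clusters and both libraries. The BMD ratio was below the 2.51 of the whole class in every cluster, and the DMD ratio was above the 2.36 of the class only in the Myh6 cluster. The number of nuclei in each cluster differed between libraries, and its part in the ratio of the class was not tested.

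Ccn1 was 11.7, 46.7 and 30.4 CPM in the Myh6 cluster, with ratios of 1.63 (0.98–2.23) and 1.08 (0.41–1.71). In the Xirp2 cluster it was 44.5, 87.1 and 53.2 CPM, with ratios of 0.89 (0.54–1.26) and 0.23 (-0.16 to 0.64). In the small Gadd45g and Nppb cluster it was 18.0, 108 and 42.0 CPM, with ratios of 2.30 (0.89–3.75) and 1.03 (-0.77 to 2.76). For Ccn1 in DMD, the difference from WT was thus detectable in the Myh6 cluster and not in the others.

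**Figure D3:**
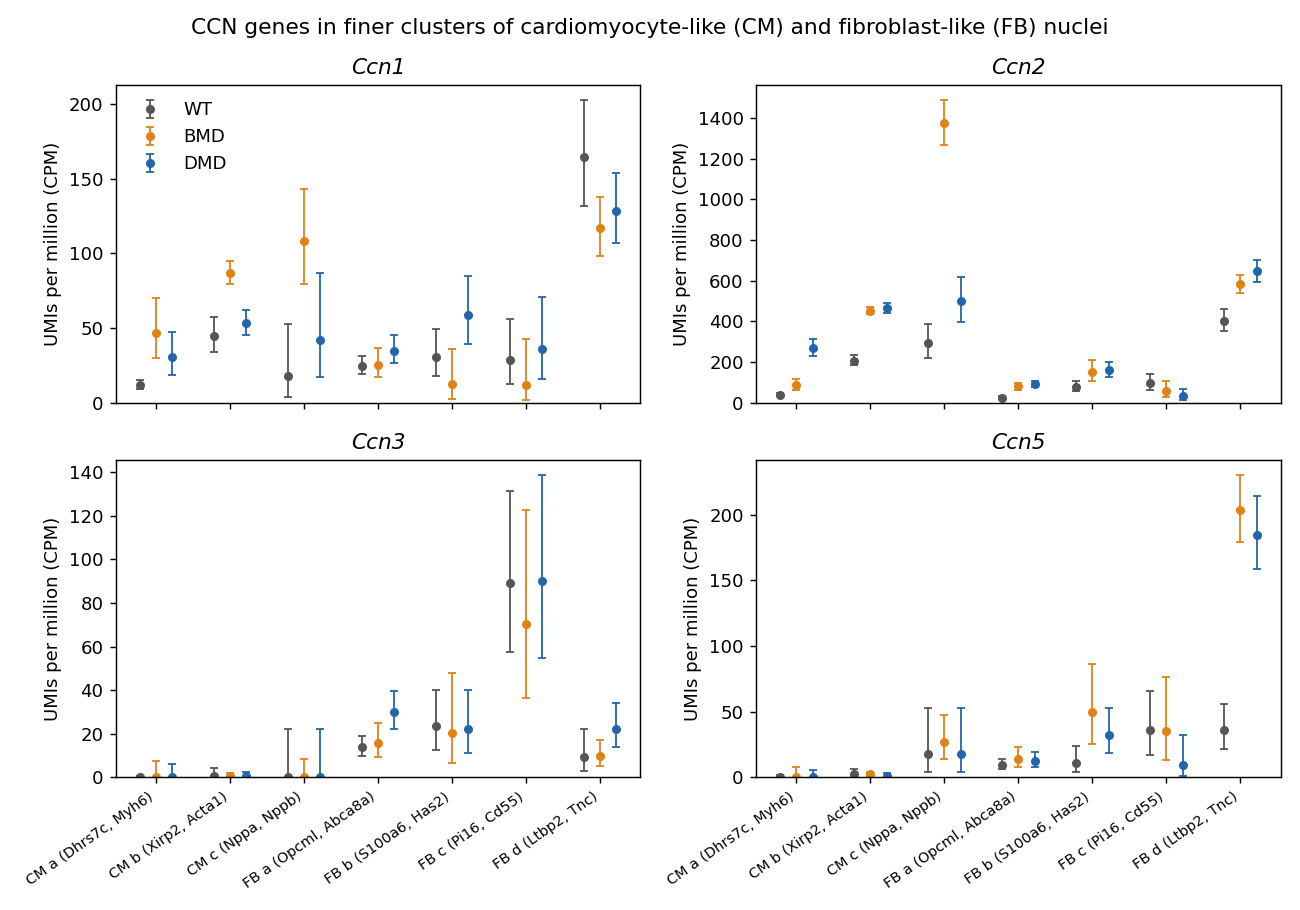
CPM of Ccn1, Ccn2, Ccn3 and Ccn5 (vertical axes, UMIs per 1000000) in 3 finer clusters of cardiomyocyte-like (CM) and 4 of fibroblast-like (FB) nuclei, each named by a pair of its leading genes, in WT, BMD and DMD. Points are 1 library each with exact Poisson 95% counting intervals. Ccn5 stands out in the Ltbp2 and Tnc cluster of BMD and DMD, Ccn3 in the Pi16 and Cd55 cluster of every library.

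Fibroblasts are the cells in which CCN proteins are best known, as products and as regulators of matrix. In fibroblast-like nuclei (3521 of WT, 1646 of BMD and 2251 of DMD), Ccn2 had 74.9 CPM in WT (67.4–83.0), 293 in BMD (274–313) and 251 in DMD (235–268). Log2 ratios over WT were 1.90 (1.73–2.07) for BMD and 1.68 (1.51–1.85) for DMD. DMD against BMD was -0.22 (-0.36 to -0.08), a difference that was not seen at every depth, as given below. Thinned shares of nuclei with Ccn2 were 1.90% (1.48–2.41), 8.81% (7.48–10.3) and 8.04% (6.95–9.24) for WT, BMD and DMD, and without thinning 4.23%, 19.9% and 16.8%. Both mutant libraries were above WT by level and by share.

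Ccn5 showed the largest ratio of the family in these nuclei. It had 67 UMIs or 13.8 CPM in WT (10.7–17.5), 287 UMIs or 98.2 CPM in BMD (87.1–110.2) and 216 UMIs or 63.0 CPM in DMD (54.9–72.0). Log2 ratios over WT were 2.45 (2.15–2.76) for BMD and 1.85 (1.53–2.17) for DMD, and DMD was below BMD by -0.60 (-0.85 to -0.36). The 3 intervals of the levels did not overlap, with BMD highest and WT lowest.

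Ccn1 and Ccn3 differed less. Ccn1 had 39.8, 62.6 and 69.1 CPM, with ratios of 0.59 (0.32–0.86) and 0.73 (0.47–0.98), both short of 2-fold. Ccn3 had 84 UMIs or 17.3 CPM in WT (13.8–21.4), 47 UMIs or 16.1 CPM in BMD (11.8–21.4) and 101 UMIs or 29.4 CPM in DMD (24.0–35.8). Its ratio was -0.08 in BMD (-0.50 to 0.33), within counting error, and 0.63 in DMD (0.27–0.98), and DMD was above BMD by 0.71 (0.30–1.12). Of the 4 members with at least 50 UMIs in these nuclei, Ccn3 was the only one at which the BMD interval of the ratio reached 0.

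Of the 6 members, 4 (Ccn1, Ccn2, Ccn3 and Ccn5) had at least 50 UMIs in fibroblast-like nuclei, each of them in the WT library alone. Ccn2 and Ccn5 were at least 2-fold over WT in BMD, where 1.36% of 10689 genes were, and in DMD, where 0.926% were. Both were at least 2-fold higher in both libraries, as were 0.458% of genes, and no member was 2-fold lower in both, as were 0.112%. Ccn5 stood 7th in BMD and 11th in DMD from the highest ratio down, Ccn2 stood 15th in both, and the median ratio of all genes was -0.05 and -0.02.

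**Figure D4:**
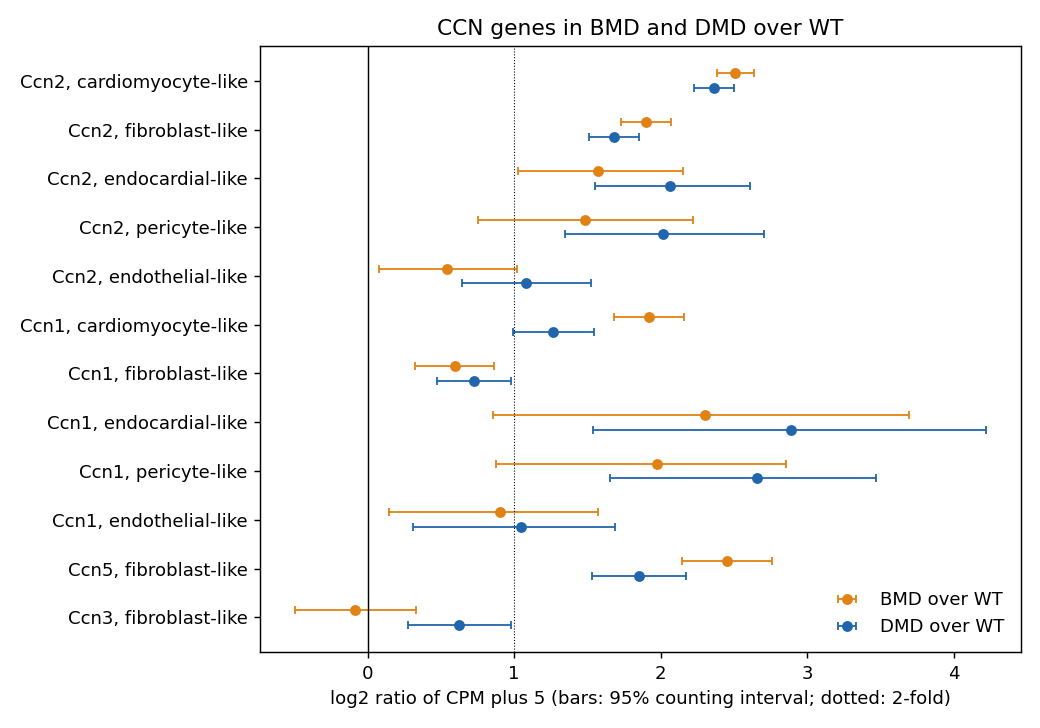
log2 ratio of CPM plus 5 over WT (horizontal axis) for members with enough counts, by cell class (vertical axis), in BMD and DMD. Bars are 95% counting intervals, the solid line is no difference and the dotted line is 2-fold. Ccn2 in cardiomyocyte-like and Ccn5 in fibroblast-like nuclei lie farthest from 0 among the narrow intervals, and Ccn3 in BMD lies at -0.08.

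Cardiomyocyte markers in fibroblast-like nuclei summed to 508, 934 and 818 CPM (WT, BMD, DMD), and their part in the CCN levels was not tested. By depth, Ccn2 was 46.4, 236 and 229 CPM between 500 and 2000 UMIs, and 151, 284 and 314 CPM between 2000 and 4000. The few deeper fibroblast-like nuclei (25, 39 and 34) had 113, 790 and 170 CPM. In the deepest band the DMD interval overlapped that of WT, and in the others both mutant libraries lay above WT. BMD lay clear above DMD only in the deepest band, and their intervals overlapped in the others. Ccn1 was 32.9, 49.97 and 79.5 CPM in the shallowest band and 55.5, 55.0 and 43.5 CPM in the next, where all intervals overlapped. In the few deeper nuclei it was 78.4 (35.8–148.8), 209 (149.5–284.9) and 85.1 CPM (46.5–142.8), with BMD just clear of WT.

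Of 4 finer clusters named fibroblast-like, the same cluster had the highest Ccn1, Ccn2 and Ccn5 in BMD and DMD. That cluster, led by Ltbp2 and Tnc, a latent TGF-beta binding protein and tenascin C, held 298 WT, 629 BMD and 538 DMD nuclei. Ccn2 was 402, 581 and 646 CPM there, with ratios of 0.53 (0.31–0.75) and 0.68 (0.45–0.91). Ccn5 was 35.9, 203 and 185 CPM, with ratios of 2.35 (1.74–2.996) and 2.22 (1.59–2.87). Ccn1 was 164, 117 and 129 CPM, with ratios of -0.47 (-0.86 to -0.09) for BMD and -0.34 (-0.74 to 0.06) for DMD. In the same cluster, then, Ccn5 kept its distance from WT, Ccn2 differed by less than 2-fold, and Ccn1 pointed the other way.

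The largest fibroblast-like cluster, led by Opcml and Abca8a (1677, 590 and 958 nuclei), had the lowest Ccn2 of the 4 in WT. Ccn2 was 24.2, 79.9 and 89.9 CPM there, with ratios of 1.54 (1.12–1.95) and 1.70 (1.32–2.08). Ccn5 was 9.70, 14.1 and 12.4 CPM and Ccn1 was 24.6, 25.5 and 34.7 CPM, differences within counting error. Ccn3 was 13.8, 15.8 and 29.8 CPM, a ratio of 0.15 in BMD (-0.51 to 0.79) and 0.89 in DMD (0.37–1.39). Ccn2 was thus over WT in this cluster as well, and the DMD difference of Ccn3 was seen in it.

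The remaining fibroblast-like clusters differed again. Ccn3 was highest in a cluster whose leading genes included Pi16 and Cd55, both known from fibroblasts around vessels and in the adventitia (162, 79 and 119 nuclei), at 89.2, 70.2 and 89.9 CPM, with ratios of -0.32 (-1.36 to 0.66) and 0.01 (-0.86 to 0.87). Ccn2 in that cluster was 96.3, 58.5 and 31.5 CPM, the only fibroblast-like cluster of the 4 in which WT had the highest value, from 27, 10 and 7 UMIs with overlapping intervals. In the cluster led by S100a6 and Has2 (618, 223 and 493 nuclei), Ccn2 was 77.5, 152 and 160 CPM, with ratios of 0.93 (0.28–1.56) and 1.003 (0.47–1.54). A further finer cluster (764, 122 and 144 nuclei) was left unnamed by the naming rule, although 6 of 12 fibroblast markers were raised in it. Ccn2 there was 16.3 (8.69–27.9), 89.0 (47.4–152.2) and 129 CPM (79.0–199.7), and Ccn1 was 18.8 (10.5–31.1), 47.9 (19.3–98.8) and 116 CPM (69.0–183.9). Ccn2 of both mutant libraries and Ccn1 of DMD lay clear above WT in it, unlike Ccn1 in the Opcml and Ltbp2 clusters. The CCN genes took no part in the clustering, and cluster sizes were not compared between libraries.

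Endocardial-like nuclei, named by markers of the lining of the heart chambers, had the highest Ccn2 level of any class in WT and DMD. Ccn2 was 157 CPM in WT (108–220), 477 in BMD (397–567) and 672 in DMD (595–755), from 33, 127 and 278 UMIs in 183, 158 and 258 nuclei. The ratio over WT was 1.57 (1.02–2.15) in BMD and 2.06 (1.55–2.61) in DMD, and DMD was above BMD by 0.49 (0.18–0.80). The summed levels of muscle and fibroblast-like nuclei had the other order, which did not hold at every depth or in every finer cluster. Thinned shares were 6.01% (3.04–10.5), 10.8% (6.39–16.7) and 24.0% (18.9–29.7). The share of DMD stood clear of the others, and those of WT and BMD overlapped. Ccn1 had 3, 24 and 57 UMIs in these nuclei, or 14.3, 90.1 and 138 CPM. Cardiomyocyte markers summed to 599, 938 and 838 CPM in this class and fibroblast markers to 3988, 2770 and 4557. Called doublets made up 8.20%, 5.70% and 14.0% of the class in WT, BMD and DMD. The part of these markers and doublets in the result was not tested.

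Vascular classes had less. Pericyte-like nuclei, named by markers of the mural cells of capillaries, had Ccn2 at 26.8, 83.7 and 123 CPM, with ratios of 1.48 (0.75–2.22) and 2.01 (1.34–2.70). Ccn1 there had 4, 20 and 40 UMIs, or 5.95, 38.0 and 64.0 CPM, with ratios of 1.97 (0.87–2.86) and 2.66 (1.65–3.47). Thinned Ccn2 shares were 0.860%, 3.34% and 3.36%, close to those of T, B or NK cell-like nuclei. Cardiomyocyte markers in the class summed to 803, 1932 and 1332 CPM and fibroblast markers to 3078, 2381 and 4994. In the class as a whole 8 smooth muscle and 5 bone or cartilage markers were also raised. Called doublets made up 10.6%, 6.90% and 12.7% of it in WT, BMD and DMD. The part of these markers and doublets in the result was not tested. A finer smooth muscle-like cluster (72, 68 and 99 nuclei, 33.9% of them called doublets, with the bone genes Ibsp and Bglap among its leading genes) had 98.9, 168 and 322 CPM of Ccn2. How many of its nuclei were counted as pericyte-like in the main clustering was not traced.

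Endothelial-like nuclei had the smallest Ccn2 ratios of the larger classes, with 34.1, 51.9 and 77.6 CPM, a ratio of 0.54 in BMD (0.08–1.02) and 1.08 in DMD (0.65–1.52). Ccn1 was 5.93, 15.5 and 17.5 CPM in them. Lymphatic-like nuclei had Ccn2 at 21.6, 89.6 and 135 CPM, from 4, 35 and 44 UMIs. Thinned Ccn2 shares were 1.63%, 2.20% and 3.07% in endothelial-like and 1.97%, 3.40% and 5.86% in lymphatic-like nuclei. These shares had intervals that overlapped between WT and each mutant library of the same class, and in BMD and DMD they also overlapped the interval of T, B or NK cell-like nuclei.

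Lymphocytes are not known as a source of Ccn2, so their nuclei served as a measure of background. T, B or NK cell-like nuclei had Ccn2 at 16.8 CPM (7.25–33.1) for WT, 64.8 (39.6–100.1) for BMD and 80.1 (57.0–109.5) for DMD, at median depths of 823.5, 854.5 and 925 UMIs. Thinned shares were 0.670% (0.138–1.94), 3.45% (1.67–6.25) and 2.86% (1.43–5.05), and without thinning 1.79%, 5.52% and 6.75%. Macrophage-like nuclei, of which 17.1%, 11.7% and 25.8% were called doublets, had 26.4, 96.6 and 99.7 CPM and thinned shares of 0.899%, 3.16% and 2.47%. These classes carried Ccn2 at levels that differed between the libraries as the muscle levels did, and their shares in BMD and DMD were met by those of endothelial-like, pericyte-like and lymphatic-like nuclei. Monocyte or neutrophil-like nuclei had 81.5, 293 and 351 CPM (13, 32 and 68 UMIs), with 31.9% of the class called doublets, and Schwann-like nuclei had 59.6, 117 and 237 CPM from 5, 6 and 12 UMIs.

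Free RNA was measured in barcodes with at most 50 UMIs, which were taken to hold no nucleus. Ccn2 was 135 CPM in these barcodes in WT, 511 in BMD and 476 in DMD, or 1.66, 1.05 and 1.09 times its level in cardiomyocyte-like nuclei. Ccn1 was 48.2, 162 and 163 CPM, and Ccn5 was 9.52, 78.9 and 60.6 CPM. The free RNA thus differed between the libraries as the nuclei did. From the markers each class should lack, free RNA made up at most 2.29%, 2.68% and 4.69% of the UMIs of cardiomyocyte-like nuclei, 3.70%, 5.09% and 6.74% in fibroblast-like nuclei and 18.0%, 22.3% and 25.1% in macrophage-like nuclei. With that much subtracted, Ccn2 was 79.9, 484 and 436 CPM in cardiomyocyte-like and 72.6, 281 and 235 CPM in fibroblast-like nuclei, and Ccn5 was 14.0, 99.2 and 63.2 CPM in fibroblast-like nuclei. This is an upper limit of free RNA, so the subtraction may take away too much. In macrophage-like nuclei it left 0 CPM of Ccn2 in BMD and DMD, where the ratio of -0.60 then rests on the pseudocount, and in endothelial-like nuclei that of BMD turned to -0.98.

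The order of classes by Ccn2 was taken over the 3 libraries with each library weighted equally. Endocardial-like nuclei came first with a mean of 435 CPM, cardiomyocyte-like nuclei second with 335, monocyte or neutrophil-like nuclei next with 242 and fibroblast-like nuclei with 206. Schwann-like (138), lymphatic-like (82.2), pericyte-like (77.9), macrophage-like (74.2), endothelial-like (54.6) and T, B or NK cell-like nuclei (53.9) followed. The monocyte or neutrophil-like class also held 11722, 14120 and 7855 CPM of Dmd, beside 606, 840 and 665 in fibroblast-like nuclei, and 31.9% doublets, whose part in its place was not tested. In WT the interval of endocardial-like nuclei lay above those of cardiomyocyte-like and fibroblast-like nuclei, which overlapped each other, and met that of monocyte or neutrophil-like nuclei. In BMD the endocardial-like and cardiomyocyte-like intervals overlapped, and in DMD endocardial-like nuclei stood above all others. For Ccn5 fibroblast-like nuclei came first at a mean of 58.3 CPM. T, B or NK cell-like nuclei followed at 19.5, from 22 UMIs. For Ccn3 fibroblast-like nuclei came first at 20.9 CPM. Endocardial-like nuclei followed at 11.1, from 10 UMIs, close to pericyte-like nuclei at 10.1. These second places thus rest on few molecules.

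Ccn4 and Ccn6 were at or near the limit of detection. Over all nuclei Ccn4 had 7, 17 and 17 UMIs in WT, BMD and DMD, or 0.408, 1.14 and 1.23 CPM, and Ccn6 had 9, 6 and 7 UMIs, or 0.524, 0.401 and 0.508 CPM. Most classes had 3 UMIs or fewer of either gene in each library. The exceptions were Ccn4 in cardiomyocyte-like nuclei of BMD and DMD, with 7 and 6 UMIs against 1 in WT. At this depth no difference of Ccn6 between libraries was detectable.

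Likeness to Ccn1 and to Ccn2 was measured over 10 classes in 3 libraries. Over these 30 points the Pearson correlation of log2(CPM plus 5) was 0.85 between them, each standing first for the other among 12428 genes with at least 100 UMIs. After Ccn1, the genes most like Ccn2 were Tgfb2 (0.71), Mical2 (0.71), Pdlim3 (0.71) and Dzank1 (0.70). After Ccn2, those most like Ccn1 were Slc9b1 (0.64), Dzank1 (0.61), Usp9x (0.60) and Nipa1 (0.59). Ccn5 and Ccn3 were much less like Ccn2, at 0.20 and 0.10. The points share libraries and differ in depth, so these values are descriptions only.

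Genes of the pathways that act on CCN genes, and of the receptors that bind CCN proteins, were read from 5 lists. In cardiomyocyte-like nuclei, 18 of 22 listed YAP/TEAD target genes had enough counts, 4 of them were at least 2-fold over WT in both BMD and DMD, as were 0.786% of all genes, and 2 of these 4 were Ccn1 and Ccn2 themselves. The others were Tgfb2, a TGF-beta ligand, at 136, 676 and 545 CPM, and Rbms3, an RNA-binding protein gene, at 153, 830 and 505 CPM. The median ratio of the list was -0.02 in BMD and 0.54 in DMD, beside -0.04 and 0.01 for all genes, so in BMD the list as a whole lay near 0. The muscle target Ankrd1 was 3957, 7082 and 6972 CPM, a ratio of 0.84 and 0.82, under 2-fold. Of 19 genes of the Hippo pathway and TEAD factors with enough counts, 0 were 2-fold higher or lower in either library, with medians of -0.01 and -0.07.

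Among 15 SRF/MRTF factors and target genes, which respond to actin dynamics, 4 were at least 2-fold higher in both, beside 0.786% of all genes. Acta1 was 33.7, 243 and 245 CPM, and Actc1, the cardiac alpha-actin, was 581, 1438 and 1353 CPM. Fos, an immediate early gene, was 4.36, 56.2 and 17.2 CPM, and Flna, the actin cross-linker filamin A, was 9.82, 37.4 and 64.2 CPM. The medians of this list were 0.26 and 0.64. Of 17 SMAD factors and TGF-beta target genes, only Tgfb2 was 2-fold higher in both. In DMD, where 3.44% of all genes were 2-fold higher, 5 were, namely Tgfb2, Col1a1, Col3a1, Postn and Ltbp2, of which Col1a1, Col3a1 and Postn were named after their values were seen. The last 4 are matrix or matrix-associated genes of fibroblasts, at 65.4, 166, 21.4 and 8.85 CPM in DMD, and Col1a1 and Col3a1 are themselves among the fibroblast markers that were higher in DMD in this class. Of 16 CCN receptors and binding partners, 0 were 2-fold higher in both, and 3 were in DMD alone (beside the same 3.44% of all genes), namely Itgb1 (the shared beta subunit of many CCN-binding integrins, at 243, 467 and 534 CPM), Lrp1 (7.79, 6.82 and 32.9 CPM) and Dcn (56.9, 29.97 and 153 CPM), also named after their values were seen. No gene of the 5 lists was 2-fold lower in both in cardiomyocyte-like nuclei.

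**Figure D5:**
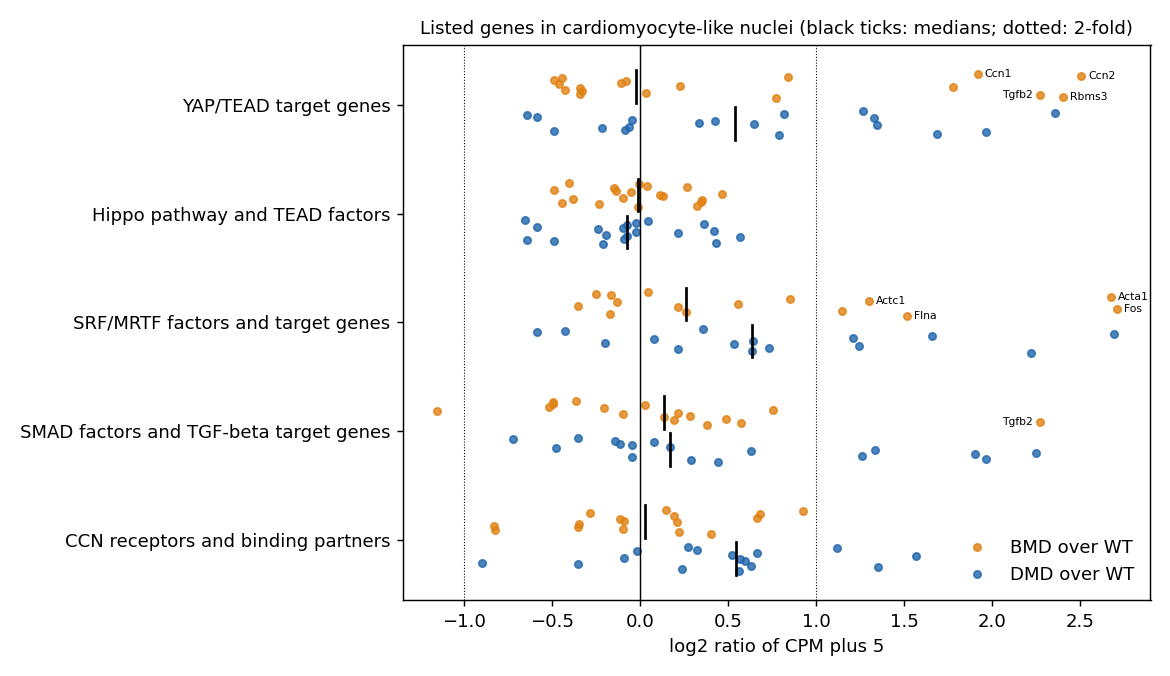
log2 ratio of CPM plus 5 over WT (horizontal axis) of each listed gene with enough counts in cardiomyocyte-like nuclei, by list (vertical axis), for BMD and DMD. Points are genes, black ticks are list medians, dotted lines are 2-fold, and genes at least 2-fold higher in both are named at their BMD point. Ccn1, Ccn2, Tgfb2 and Rbms3 stand apart from the rest of the YAP/TEAD list, and the Hippo list stays within 2-fold.

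In fibroblast-like nuclei, where 0.458% of all genes were 2-fold higher in both, the lists held fewer such genes. Of 21 YAP/TEAD target genes only Ccn2 was at least 2-fold over WT in both, with list medians of -0.07 and -0.10. Of 15 SRF/MRTF genes, Acta1 (1.86, 18.5 and 14.9 CPM) and Actc1 (22.1, 71.8 and 67.4 CPM) were, both of them muscle actins, in a class whose cardiomyocyte markers were also higher in BMD and DMD. Of 17 SMAD and TGF-beta genes, Ltbp2 was, at 86.2, 408 and 240 CPM, with medians of 0.41 and 0.56 for the list. None of 20 Hippo genes and none of 18 receptors and binding partners was 2-fold higher in both. Ccn2 thus stood alone among the listed YAP/TEAD targets in passing 2-fold in both libraries in fibroblast-like nuclei, and the median of the list was near that of all genes.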

How the data were processed

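Sorted nuclei from the cardiac apex were measured in 1 library per genotype (WT, BMD, DMD). The deposited files hold unnormalized UMI counts for each gene and barcode, made by the authors with Cell Ranger on the rn6 genome. Per the file headers the BMD and DMD matrices came from Cell Ranger 4, whereas the file given for WT is an aggregate of 3 libraries from version 6.0.1 with 5078007 barcodes, of which those with the suffix 3 are WT. BMD and DMD counts were taken from their own files. In the aggregate 76.1% of the BMD and 92.9% of the DMD UMIs were kept, and 100% of those of WT.

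As nuclei, as many of the deepest barcodes were taken as the study's methods count, 24664 in all. The shallowest WT, BMD and DMD nuclei had 513, 525 and 546 UMIs, and 79.4%, 70.8% and 71.6% of all UMIs fell in nuclei. Of the barcodes, 44 occurred in 2 or more libraries and 0 in all. No doublet or mitochondrial filter was applied. Counts were scaled to 10000 per nucleus, log-transformed and clustered with scanpy 1.11.5 and igraph 0.11.9 (2000 variable genes, 30 principal components, 15 neighbours, Leiden resolution 0.5), leaving out the CCN genes, 8 genes named by the study, and mitochondrial and sex-linked genes. A cluster was named "X-like" when at least 3 listed markers, each with at least 10 UMIs, were 2-fold over the other nuclei, unless its 10 leading genes held more markers of another list or more than 5 mitochondrial genes. Clusters with over 50% doublets called by Scrublet were left unnamed (999 nuclei, 90.4% doublets), a choice made once the data had been seen.

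UMIs were summed per class and library and given as CPM with exact Poisson intervals. Ratio intervals were exact binomial intervals conditional on the counts compared, and shares had exact Clopper-Pearson intervals, all at 95% and computed with scipy 1.17.1, numpy 2.4.6 and pandas 2.3.3. They cover counting error only. Ratios were taken on log2(CPM + 5), which understates the change of low genes, and genes with at least 50 UMIs in a class were counted against a 2-fold rule. On data simulated for cardiomyocyte-like nuclei of BMD against WT with 10306 genes and 200 changed, 100% of the changed genes fell on the simulated side and 95.6% of the intervals held the true value. The simulated counts followed the Poisson model that the intervals assume, without spread between nuclei or animals. The simulation therefore checks the calculation only, not whether that model holds for these data. edgeR 4.0.16 was used for an alternative scaling (TMM) only, and figures were drawn with matplotlib 3.10.9.

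The members and lists were chosen with earlier results of these data known. Genes named are all members, list genes at least 2-fold over or under WT in the same direction in both BMD and DMD in cardiomyocyte-like or fibroblast-like nuclei, Dmd, and the 5 genes most like Ccn1 and Ccn2. Partner genes in nuclei that carried Ccn2, leading genes of clusters and other genes named are given as such or as chosen after their values were seen. Promoter sequences were from RefSeq (GRCr8). Alternatives covered the choice of nuclei, doublets, mitochondrial content, clustering, free RNA, scaling, averaging, the pseudocount, thinning, the low-count minimum and the source of the BMD and DMD counts.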

Additional observations from a re-analysis of the deposited data

Results flagged for a closer look

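Ccn3 differed from WT in opposite directions in the mutant libraries over all nuclei, with a log2 ratio of -0.30 in BMD (-0.52 to -0.06) and 0.45 in DMD (0.22–0.67). In fibroblast-like nuclei, which supplied most Ccn3 and made up 35.3%, 24.2% and 28.5% of the WT, BMD and DMD libraries, the ratios were -0.08 (-0.50 to 0.33) and 0.63 (0.27–0.98). With 1 library a group, the difference was not tested between animals, and both ratios share the WT library. Ccn2 was also counted in clusters that carried no name, 90.4% of whose nuclei were called doublets, at 338 CPM in BMD and 352 CPM in DMD against 66.0 in WT. In barcodes with at most 50 UMIs, which enter no comparison between classes, 3 members were above the WT library. Ccn1 was 162 CPM in BMD and 163 CPM in DMD against 48.2 in WT, Ccn2 was 511 and 476 CPM against 135, and Ccn5 was 78.9 and 60.6 CPM against 9.52.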

How the results depend on the processing

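For 34 log2 ratios over WT, 420 values were computed under alternative settings. Of these, 386 moved by less than the main counting interval and 28 moved by more (13 of them nearer to 0). A further 6 changed sign, which was counted only where the main interval left out 0. All 6 changes of sign came with free RNA subtracted, for Ccn2 in endothelial-like nuclei of BMD (-0.98), Ccn2 in macrophage-like nuclei of BMD and DMD (-0.60 each), Ccn1 in endothelial-like nuclei of BMD (-0.037) and Ccn1 in macrophage-like nuclei of BMD and DMD (-0.77 each). Pooling all nuclei gave 2.20 in BMD and 1.98 in DMD for Ccn2, 1.33 and 1.04 for Ccn1, and 1.38 and 1.29 for Ccn5, in place of the class values. As a mean over nuclei, Ccn2 in DMD was 2.54 in cardiomyocyte-like and 1.90 in fibroblast-like nuclei. Without the small fibroblast-like cluster 13, led by Tnc, Ccl2 and Ptx3, Ccn1 was 0.29 in BMD and 1.17 in DMD and Ccn2 was 1.97 in DMD. The share of cardiomyocyte-like nuclei with Ccn2 was 12.0% in WT, 41.7% in BMD and 41.1% in DMD without thinning, and 5.61%, 25.0% and 25.3% when thinned to 1000 UMIs, which left out 146, 83 and 226 nuclei. Over all alternatives Ccn2 in cardiomyocyte-like nuclei ranged from 2.20 to 2.56 in BMD and from 1.98 to 2.54 in DMD, and Ccn5 in fibroblast-like nuclei from 1.38 to 2.74 and from 1.29 to 2.11. The lower end of each of these ranges is the value of all nuclei pooled, not a value within the class. Leaving out cluster 11 or 13 or the nucleus with the most UMIs, and leaving doublet-rich clusters unnamed, were chosen after seeing the data. The cause of these shifts was not tested.

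No paired analysis was possible because each genotype had 1 library. For the same reason no replicate was left out, and the spread between animals is unknown. Genotype and library cannot be told apart, and WT counts came from an aggregate made by another version of the counting program. Fewer than 10 UMIs in a class in every library, as for Ccn4 and Ccn6 throughout, allow no ordering of libraries. Where the WT count alone was below 10, as for Ccn1 in pericyte-like nuclei (4 UMIs), the ratio over WT rests on few molecules.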
